A study of Mus musculus with 7 samples.

Results

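The 10 genes followed here in mouse liver make or use nicotinamide adenine dinucleotide (NAD) and were taken by symbol from the deposited gene table: Nampt, Nmrk1, Naprt, Qprt, Nadsyn1, Nmnat1, Nmnat3, Nadk, Nadk2 and Cd38. All 10 symbols matched 1 row each of the 54532 genes listed. Livers came from old C57BL/6 mice in a pair of groups, 3 libraries from animals fed standard chow once MDL-800 had been supplemented and 4 from control animals on standard chow alone. MDL-800 is a compound that activates SIRT6, a deacetylase that consumes NAD. The labels give no dose, age in months, sex or time of collection, and do not say whether each library is a separate animal, so p-values below measure the spread between these libraries, which may be technical in part.

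NAD carries electrons in fuel oxidation and is also broken down as a substrate by sirtuins, ADP-ribosyl transferases and the glycohydrolase CD38, so cells must keep making it. Liver can build it from tryptophan through quinolinate, from nicotinic acid by the Preiss-Handler route, and from nicotinamide or nicotinamide riboside by salvage, and these routes meet at the NMNAT enzymes. NAD kinases then phosphorylate part of the pool to NADP, the carrier used in lipid synthesis and antioxidant defence.

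Whole reads recovered from the deposited FPKM values (fragments per kilobase of gene, scaled to library size) summed to 17600066 to 19920469 per library. MDL-800 2 and control 1 held 3514 and 2173 reads of the Y-linked genes Uty, Eif2s3y, Kdm5d and Ddx3y, and the other 5 libraries held 0. These are called Y-positive and Y-negative libraries here. The hepatocyte markers Alb, Apoa1, Ttr, Serpina1a, Apob and Cps1 summed to 56237 to 56915 FPKM in MDL-800 and 54642 to 82120 FPKM in control. None of these 6 was at 0, so the defining markers of the labelled tissue were present. Coordinates below are those of GRCm38.

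None of the 10 genes differed between MDL-800 and control livers by the limma test at an adjusted p under 0.05. The share of all 11394 tested genes that passed was 0.0%. None of the 10 had an unadjusted limma p under 0.05 either, against 4.85% of all tested genes. Of the 10, 7 had a log2 fold change above 0 and 3 below 0, and the log2 fold changes ran from -0.42 for Nmrk1 to 0.34 for Nadk2. Their median was 0.17, against 0.02 over all tested genes, of which 54.2% were above 0. Adjusted p by limma ran from 0.950 to 0.969.

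**Figure D1:**
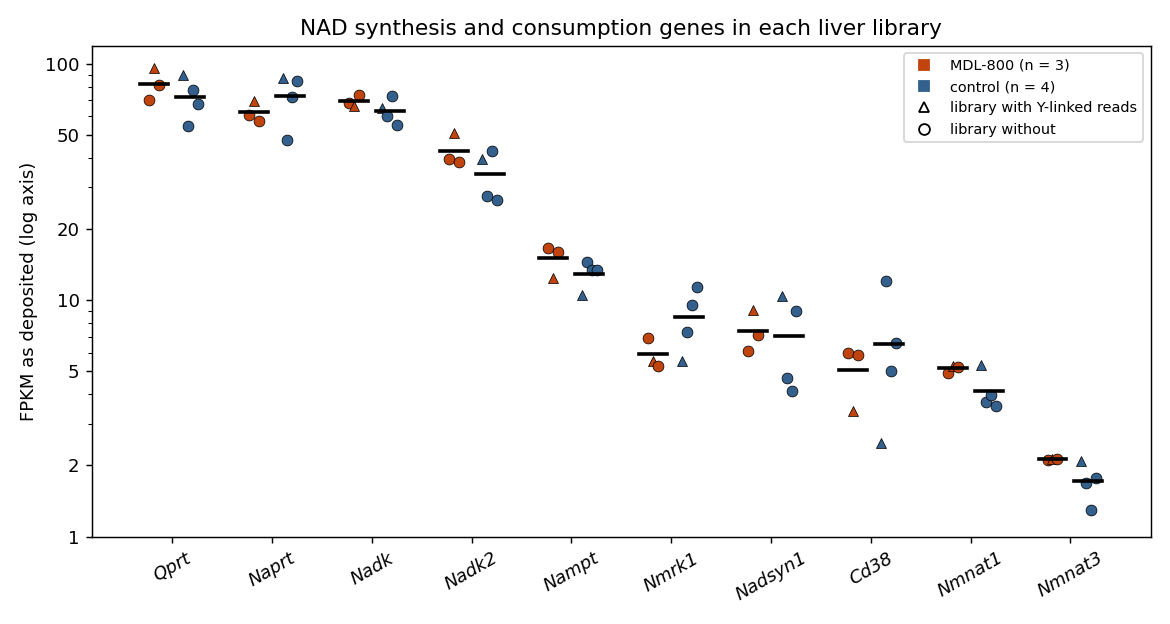
FPKM as deposited (log axis) of the 10 genes in each library, MDL-800 (n = 3) left of control (n = 4) for each gene, with bars at group means and triangles for Y-positive libraries. Qprt, Naprt and Nadk had the highest means, and Nmnat3, the lowest, is the 1 gene whose groups do not overlap.

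Levels in FPKM, which are per length, spanned from a mean of 76.6 FPKM over the 7 libraries for Qprt to 1.89 FPKM for Nmnat3. The order was Qprt, Naprt (68.4), Nadk (66.0), Nadk2 (37.9), Nampt (13.9), Nmrk1 (7.35), Nadsyn1 (7.20), Cd38 (5.91), Nmnat1 (4.57) and Nmnat3. Library ranges of Qprt, Naprt and Nadk overlapped, and Naprt was above Nadk in 3 of 7 libraries. Nadk lay above Nadk2 in all 7 libraries, Nadk2 above Nampt, and Nmnat1 above Nmnat3, in each case with no overlap of ranges. Nampt was above Nmrk1 in all 7 libraries, although the overall ranges of both genes overlapped. Nmrk1, Nadsyn1, Cd38 and Nmnat1 overlapped from 1 neighbour to the next and have no firm order. The gene with the smallest spread was Nadk, with a coefficient of variation of 10.2% over the 7 libraries, and Cd38 had the largest, 52.0%.

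Qprt (chromosome 7, 127107114 to 127122226) encodes quinolinate phosphoribosyltransferase, the step that brings the tryptophan route into NAD synthesis. It was at 70.6, 95.9 and 81.0 FPKM in MDL-800 1 to 3, against 89.7, 54.6, 77.2 and 67.3 FPKM in control 1 to 4. The groups overlapped, with the highest value in MDL-800 2 and the lowest in control 2. The log2 fold change was 0.20 with a standard error of 0.20. The mean was 82.5 ± 12.8 FPKM for MDL-800 (SD, n = 3) and 72.2 ± 14.9 FPKM for control (SD, n = 4).

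Naprt (chromosome 15, 75890956 to 75894481) encodes nicotinate phosphoribosyltransferase, which starts the Preiss-Handler route. It stood at 60.5, 69.6 and 57.5 FPKM in MDL-800, against 87.2, 47.7, 72.1 and 84.6 FPKM in control. The MDL-800 values lay inside the control range, between control 2 below and the other 3 controls above. The log2 fold change was -0.19 with a standard error of 0.23, and -0.37 without control 2 (limma unadjusted p = 0.0366, adjusted p = 0.957), where 4.48% of all tested genes had an unadjusted p under 0.05. Without control 1 it was -0.088 (limma unadjusted p = 0.719). Over the 15 alternatives and the fit itself the Naprt adjusted p ran from 0.824 to 0.9999. The exons of Naprt share 277 bases with those of Eef1d on the same strand in GENCODE M21, so part of its reads is uncertain.

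Nadsyn1 (chromosome 7, 143795584 to 143822849) encodes NAD synthetase, which amidates the product of both of these routes. Values were 6.11, 9.05 and 7.10 FPKM in MDL-800, against 10.4, 4.70, 4.12 and 8.97 FPKM in control. Controls fell on both sides of the MDL-800 range. On the log2 scale the difference was 0.14 (standard error 0.31), and it turned to -0.0019 without control 2 and to -0.053 without control 3.

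Nampt (chromosome 12, 32819545 to 32853349) encodes nicotinamide phosphoribosyltransferase, the rate-limiting enzyme of salvage from nicotinamide. It was at 16.6, 12.5 and 16.1 FPKM in MDL-800, against 10.5, 14.6, 13.4 and 13.4 FPKM in control. MDL-800 1 and MDL-800 3 lay above every control, and MDL-800 2 lay below 3 of the 4. The mean was 15.0 ± 2.25 FPKM for MDL-800 (SD, n = 3) and 13.0 ± 1.74 FPKM for control (SD, n = 4), a log2 fold change of 0.20 with a 95% interval from -0.16 to 0.56. With a term for Y-linked reads in the limma fit the value was 0.23 (unadjusted p = 0.033, adjusted p = 0.661). In that fit 7.27% of all tested genes had an unadjusted p under 0.05. Other alternatives fell on both sides of that value. The highest was 0.32 without MDL-800 2 (limma unadjusted p = 0.0844). The lowest were 0.13 without MDL-800 1 (limma unadjusted p = 0.505) and 0.11 without control 1 (limma unadjusted p = 0.464).

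Nmrk1 (chromosome 19, 18631950 to 18652194) encodes nicotinamide riboside kinase, which phosphorylates nicotinamide riboside. It was at 6.90, 5.50 and 5.28 FPKM in MDL-800, against 5.50, 7.35, 9.56 and 11.4 FPKM in control. Control 2, control 3 and control 4 lay above all MDL-800 libraries, and control 1 lay at the level of MDL-800 2. The mean was 5.90 ± 0.881 FPKM for MDL-800 (SD, n = 3) and 8.45 ± 2.56 FPKM for control (SD, n = 4). This was the most negative difference of the 10, -0.42 on the log2 scale (standard error 0.23), with a 95% interval from -0.96 to 0.12. The exact two-sided permutation p over 35 assignments, unadjusted, was 0.114, where the smallest possible is 0.0286. In the 5 Y-negative libraries the log2 fold change was -0.55 (limma unadjusted p = 0.0493, adjusted p = 0.914), and without control 1 it was -0.59 (unadjusted p = 0.0162, adjusted p = 0.582), where 8.32% of all tested genes had an unadjusted p under 0.05. The Y-positive pair, MDL-800 2 against control 1, differed by -0.00018 on the log2 scale. Without control 4 the log2 fold change of Nmrk1 was -0.28 (limma unadjusted p = 0.224). Over all alternatives the Nmrk1 adjusted p ran from 0.582 to 0.9999.

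Nmnat1 and Nmnat3 encode the nuclear and the mitochondrial enzyme that complete NAD from its mononucleotide. Nmnat1 (chromosome 4, 149467572 to 149485202) was at 4.94, 5.26 and 5.23 FPKM in MDL-800, against 5.33, 3.71, 3.95 and 3.55 FPKM in control. Control 1 was the highest of the 7 libraries, and the other 3 controls lay below all MDL-800 values. The log2 fold change was 0.27 with a standard error of 0.13 and a 95% interval from -0.04 to 0.58, with a limma unadjusted p of 0.0779. Without control 1 it was 0.38 (unadjusted p = 0.00591, adjusted p = 0.532), and in the Y-negative libraries 0.36 (unadjusted p = 0.023, adjusted p = 0.874). The Y-positive pair differed by -0.018. Without control 4 the log2 fold change of Nmnat1 was 0.22 (limma unadjusted p = 0.167). Over all alternatives the Nmnat1 adjusted p ran from 0.532 to 0.9999.

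Nmnat3 (chromosome 9, 98287435 to 98420438) was at 2.117, 2.122 and 2.118 FPKM in MDL-800, against 2.08, 1.68, 1.30 and 1.78 FPKM in control. It was the 1 gene of the 10 whose groups did not overlap, against 6.45% of all tested genes. The gap to the highest control, control 1, was far smaller than counting error. MDL-800 1 rested on 183 reads, whose exact 95% Poisson interval ran from 1.82 to 2.45 FPKM, and control 1 on 151 reads, with an interval from 1.76 to 2.44 FPKM. These intervals cover counting error only, since PCR copies of 1 molecule were not told apart. The SD of 0.00272 FPKM among the MDL-800 libraries was likewise well inside what their read numbers allow. The log2 fold change was 0.21 with a standard error of 0.12 (limma unadjusted p = 0.127), and the exact two-sided permutation p was 0.0571, unadjusted.

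The denominator behind each FPKM value bears on this non-overlap. Recovered reads were 0.995 times the authors' denominator in control 2 and 1.28 times in MDL-800 2, with the other libraries between. With summed reads as the denominator, Nmnat3 stood at 1.99, 1.66 and 1.94 FPKM in MDL-800, against 1.66, 1.69, 1.04 and 1.46 FPKM in control, and the groups overlapped. They also overlapped with each library scaled to its median. On the summed-read scale Nadk2 was the 1 gene of the 10 without overlap, where 8.65% of all tested genes had none, and on the median scale 0 of the 10 had none, against 6.62%.

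**Figure D2:**
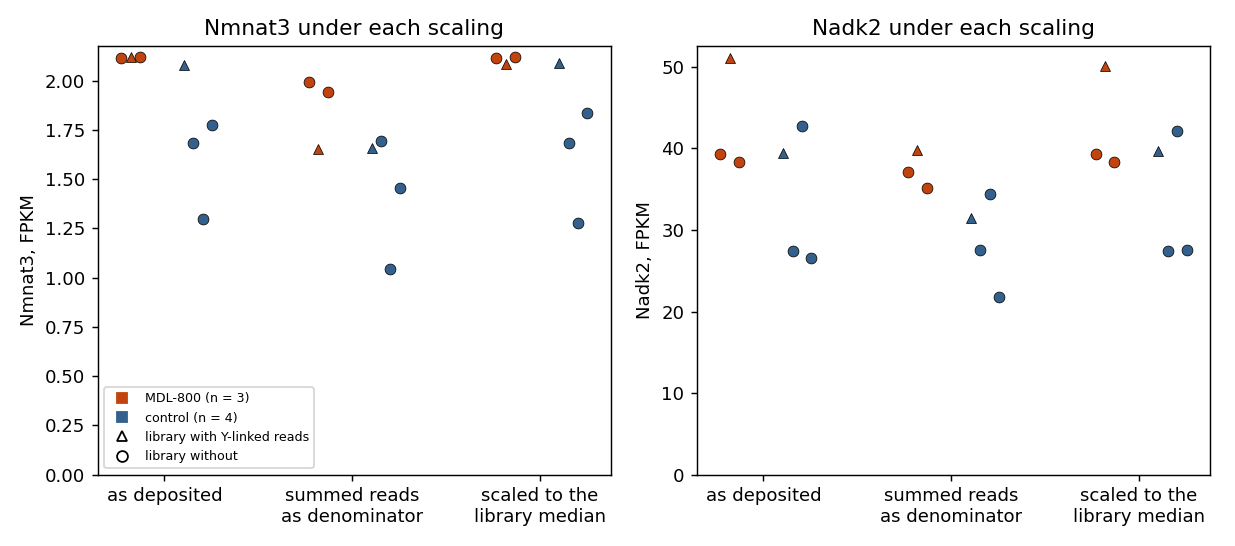
FPKM of Nmnat3 (left) and Nadk2 (right) in each library under 3 scalings, MDL-800 left of control and triangles for Y-positive libraries. The groups of Nmnat3 are apart as deposited and overlap under the other scalings, and those of Nadk2 are apart with summed reads as the denominator.

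Nadk and Nadk2 encode the cytosolic and the mitochondrial NAD kinase. Nadk (chromosome 4, 155562378 to 155591001) was at 68.5, 66.3 and 74.1 FPKM in MDL-800, against 64.9, 60.3, 72.8 and 55.0 FPKM in control. One control, control 3, exceeded 2 of the MDL-800 libraries. Nadk differed by 0.14 on the log2 scale (standard error 0.13). Nadk2 (chromosome 15, 9071260 to 9110891) was at 39.4, 51.1 and 38.3 FPKM in MDL-800, against 39.5, 27.5, 42.8 and 26.6 FPKM in control. MDL-800 2 was the highest library, and control 2 and control 4 lay below all others. Its difference of 0.34 on the log2 scale (standard error 0.21, 95% interval from -0.16 to 0.85) was the most positive of the 10. With a pseudocount of 0.1, which shrinks low genes less, it was 0.35, against 0.33 for Nmnat1 and 0.31 for Nmnat3. With summed reads as the denominator Nadk2 stood at 37.1, 39.9 and 35.2 FPKM in MDL-800, against 31.5, 27.6, 34.4 and 21.8 FPKM in control.

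**Figure D3:**
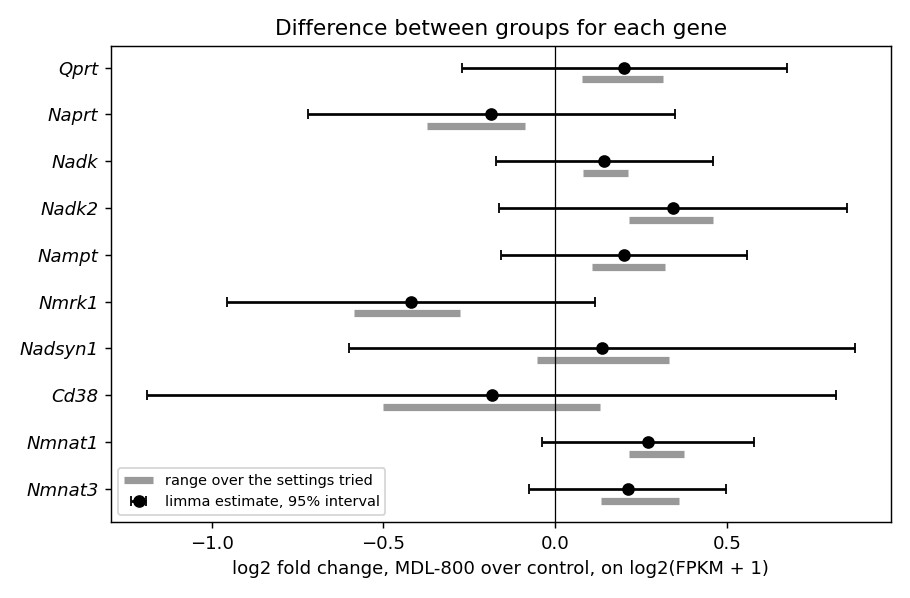
Log2 fold change of each gene, MDL-800 over control, on the log2(FPKM + 1) scale, with the limma 95% interval (black) and the range over all settings tried (grey). All 10 intervals include 0, and the grey ranges of Nadsyn1 and Cd38 cross it.

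Cd38 (chromosome 5, 43868553 to 43912375) encodes an ectoenzyme that cleaves NAD and is abundant on immune cells. It was at 5.95, 3.41 and 5.84 FPKM in MDL-800, against 2.50, 12.0, 5.03 and 6.57 FPKM in control. Control 2 held the highest and control 1 the lowest value, so the MDL-800 libraries lay inside the control range. The mean was 5.07 ± 1.44 FPKM for MDL-800 (SD, n = 3) and 6.53 ± 4.03 FPKM for control (SD, n = 4). The log2 fold change was -0.19 with a 95% interval from -1.19 to 0.82, which spans changes of more than 1.5-fold in both directions. It turned to 0.13 without control 2 and to 0.03 without MDL-800 2.

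Cd38 varied with the Kupffer cell and macrophage markers (Adgre1, Clec4f, Csf1r, Vsig4, Cd68, Cd5l, Timd4, C1qa, C1qb and C1qc). The 10 markers summed to 846, 204 and 779 FPKM in MDL-800, against 255, 2289, 479 and 784 FPKM in control. All 10 had a lower mean in MDL-800 than in control, but only 1 of 10 did without control 2, where the sums averaged 610 FPKM (n = 3) in MDL-800 and 506 FPKM (n = 3) in control. None was at 0 throughout. Across the 7 libraries Pearson's r between the log2 marker sum and log2 Cd38 was 0.963 and Spearman's rho 0.929, and without control 2, r was 0.922 over 6 libraries. Over 8 marker lists, r with Cd38 ran from 0.0741 for stellate cells to that value. These r values, and those with marker sums below, are descriptions over libraries that share depth and scaling and include the 2 Y-positive ones. The first principal component of the tested genes held 49.6% of variance. It set MDL-800 2 (49.9) and control 1 (49.7) at 1 end and control 2 (-39.1) at the other, as the marker sum did. The share of tested genes with an r this high to the marker sum was not computed. No link particular to Cd38 or Qprt is thus shown. In whole liver, fewer cells of a type and less RNA per cell cannot be told apart. The part of macrophage content in the Cd38 values was not tested.

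**Figure D4:**
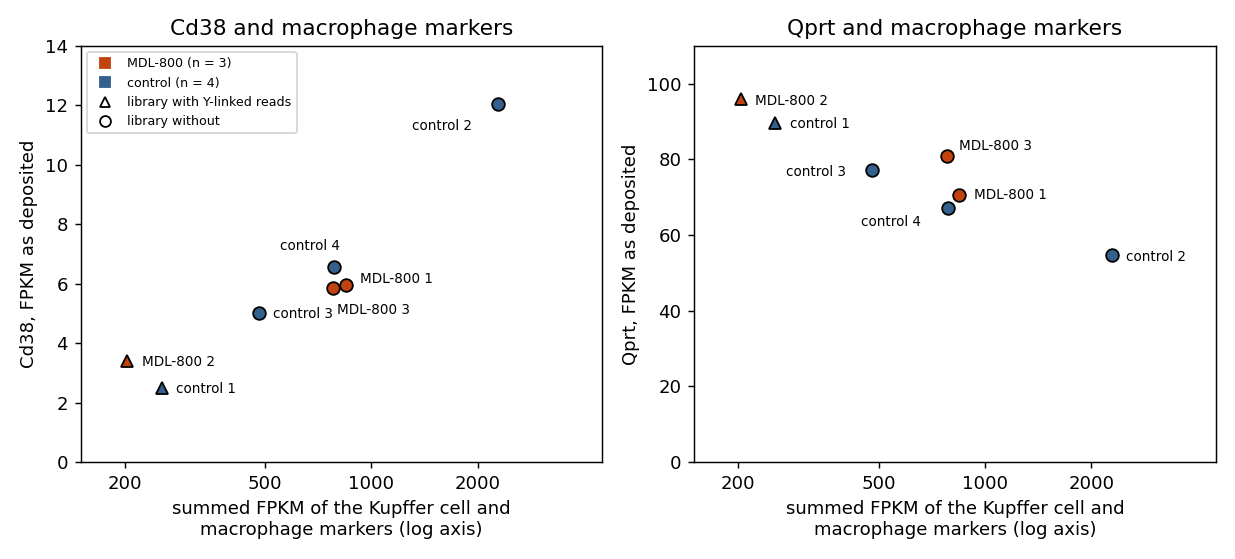
FPKM as deposited of Cd38 (left) and Qprt (right) against the summed FPKM of 10 macrophage markers (log axis) in each library, coloured by group with triangles for Y-positive libraries. Cd38 is highest and Qprt lowest in control 2, where the marker sum was 2289 FPKM.

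Qprt ran the other way, with a Pearson's r of -0.949 to the same marker sum over 7 libraries and -0.892 without control 2. Nadk2 was also inverse, at -0.776, and Naprt at -0.709, while Nampt was at 0.673. Over the 8 marker lists, Nampt had its highest r with cholangiocyte markers (0.855), and Nmrk1 with hepatocyte markers (0.861) and B and plasma cell markers (0.82). Among the 10 genes themselves, the most negative r was -0.936, between Qprt and Cd38, and the most positive 0.84, between Qprt and Nadk2. The next lowest was -0.891, between Nmrk1 and Nmnat1. Marker sums of other cell types were 12.5 to 84.6 FPKM for neutrophils in MDL-800 against 24.4 to 294.1 FPKM in control, and 7.16 to 63.7 against 19.4 to 84.6 FPKM for B and plasma cells. T and NK cell markers summed to 2.88 to 12.9 FPKM in MDL-800 against 5.29 to 10.2 FPKM in control, sinusoidal endothelial markers to 22.6 to 29.3 against 9.71 to 33.7 FPKM, stellate markers to 63.2 to 97.4 against 26.7 to 82.5 FPKM, and cholangiocyte markers to 28.8 to 90.8 against 24.2 to 54.8 FPKM.

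For 5 of the 10 genes the deposited values of the 2 Y-positive and the 5 Y-negative libraries did not overlap, against 32.8% of all tested genes. Nampt (10.5 to 12.5 FPKM in Y-positive, 13.4 to 16.6 FPKM in Y-negative libraries) and Cd38 (2.50 to 3.41 against 5.03 to 12.0 FPKM) were lower in the Y-positive ones. Nmnat1 (5.26 to 5.33 against 3.55 to 5.23 FPKM), Nadsyn1 (9.05 to 10.4 against 4.12 to 8.97 FPKM) and Qprt (89.7 to 95.9 against 54.6 to 81.0 FPKM) were higher. Scaled to the library median, Nmnat1 (MDL-800 2 at 5.16, MDL-800 3 at 5.24 FPKM) and Nadsyn1 (MDL-800 2 at 8.88, control 4 at 9.28 FPKM) overlapped. With summed reads as the denominator both overlapped too, as did Qprt (control 1 at 71.5, MDL-800 3 at 74.3 FPKM). Nampt and Cd38 stayed apart on both scales. No test was made of this split, since the labels used here give no sex. Within the Y-negative libraries, MDL-800 1 and MDL-800 3 did not overlap control 2, control 3 and control 4 for Nampt, Nmnat1, Nmnat3 and Nmrk1, which is 4 of 10, against 22.7% of all tested genes. An unadjusted limma p under 0.05 was found there for 2 of the 10, against 5.4%.

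Ratios of 2 genes within a library do not depend on the library's denominator. Of the 45 ratios among the 10 genes, 3 did not overlap between the groups, which is 6.67%, against 6.98% of all pairs of tested genes above 0 in every library. The share for the 10 genes was thus near the background. The ratio of Nampt to Nmrk1, the salvage enzymes for nicotinamide and its riboside, was 2.41, 2.27 and 3.04 in MDL-800, against 1.90, 1.98, 1.41 and 1.18 in control. Qprt over Naprt was 1.17, 1.38 and 1.41 in MDL-800, against 1.03, 1.14, 1.07 and 0.796 in control. Naprt over Nadk2 was 1.54, 1.36 and 1.50 in MDL-800, against 2.21, 1.74, 1.68 and 3.18 in control. These 3 ratios are named for their lack of overlap, after their values were seen, and were not tested.

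The wider pathway and the core clock genes were described through 8 lists of 72 genes, of which 60 were tested. The clock genes, which are not NAD enzymes, made up 12 of the 72 and 11 of the 60 and count in the totals here. None of the 60 passed limma at an adjusted p under 0.05. An unadjusted p under 0.05 was found for 4, which is 6.67% of the 60 against 4.85% of all tested genes, and for 0 of the clock genes. Of the 60, 2, or 3.33%, had no overlap between the groups as deposited, against 6.45%. In all 33 log2 fold changes were above 0 and 27 below, with a median of 0.02. The clock genes gave 7 of those above and 4 of those below.

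**Figure D5:**
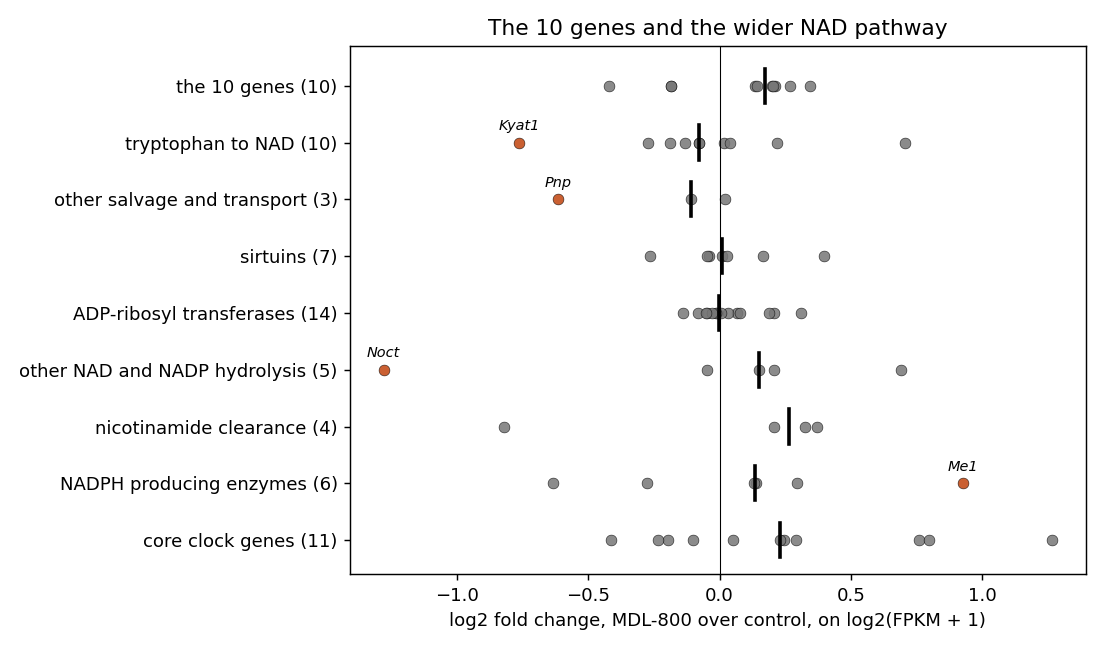
Log2 fold change, MDL-800 over control, of the 10 genes and of the tested genes of 8 pathway lists (number tested in brackets), with a bar at each median. Genes in orange had an unadjusted limma p under 0.05, and none passed after adjustment.

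In the tryptophan list, which also holds enzymes that draw intermediates off the route, 4 of 10 tested genes were above 0 and 6 below. The median was -0.08. Tdo2, the dioxygenase that opens the route in liver, was at 144.6, 546.9 and 172 FPKM in MDL-800, against 391.5, 79.6, 89.6 and 161.1 FPKM in control, highest in the 2 Y-positive libraries. Kyat1, a kynurenine aminotransferase that draws intermediates off to kynurenic acid, was at 23.6, 47.0 and 18.1 FPKM in MDL-800, against 57.5, 42.0, 43.6 and 46.0 FPKM in control (log2 fold change -0.76, limma unadjusted p = 0.0431, adjusted p = 0.950). MDL-800 2 lay among the controls. Kyat3 and Kynu had log2 fold changes of -0.27 and 0.22, and Ido1, the immune-inducible dioxygenase, was below the filter.

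Of the other salvage and transport genes, 1 of 3 tested was above 0 and 2 below, with a median of -0.11. Pnp, the purine nucleoside phosphorylase that also cleaves nicotinamide riboside, was at 14.1, 9.56 and 13.0 FPKM in MDL-800, against 14.9, 18.7, 22.2 and 21.3 FPKM in control. Every control was above every MDL-800 library as deposited, and the log2 fold change was -0.62 (standard error 0.18, limma unadjusted p = 0.0124, adjusted p = 0.950). Recovered reads were 1.06 times the authors' denominator in MDL-800 1 and 1.25 times in control 1. With summed reads as the denominator Pnp in MDL-800 1 thus lies above control 1, and the groups overlap. Slc25a51, the mitochondrial NAD carrier, averaged 11.5 ± 1.79 FPKM for MDL-800 (SD, n = 3) and 11.3 ± 1.40 FPKM for control (SD, n = 4). Nt5e, an ectonucleotidase, had -0.11 with a standard error of 1.10. Nmnat2, Nmrk2, Slc12a8, Slc22a13 and Slc5a8 were below the filter, and Slc22a13 was listed at 0 in all 7 libraries.

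Among genes that break down NAD(P) or its reduced forms, 3 of 5 tested were above 0 and 2 below, with a median of 0.15. Noct, which encodes nocturnin, a rhythmic NADP phosphatase, was at 6.01, 13.8 and 6.34 FPKM in MDL-800, against 16.7, 16.9, 16.7 and 42.1 FPKM in control. The groups did not overlap (log2 fold change -1.28, standard error 0.41, limma unadjusted p = 0.0163, adjusted p = 0.950), and MDL-800 2 was close to the lower 3 controls. Enpp3, Nudt12 and Enpp1 had log2 fold changes of 0.69, 0.21 and 0.15. Bst1, Sarm1 and Hddc3 were below the filter.

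Of the 7 sirtuins, which consume NAD, 4 were above 0 and 3 below, with a median of 0.01 and no unadjusted p under 0.05. Sirt3, the mitochondrial member, was at 12.9, 22.1 and 13.2 FPKM in MDL-800, against 18.6, 8.18, 10.7 and 11.0 FPKM in control, highest in the 2 Y-positive libraries. It differed by 0.40 on the log2 scale (standard error 0.30), and Sirt7 by -0.26 (standard error 0.16). Of 14 tested ADP-ribosyl transferases 7 were on each side of 0, with a median of -0.0012. Parp9, Tnks, Parp12 and Tnks2 had the smallest p among them, with log2 fold changes of 0.21, 0.19, 0.31 and 0.08. Parp1, the main DNA damage sensor of the family, averaged 8.86 ± 0.566 FPKM for MDL-800 (SD, n = 3) and 8.45 ± 0.977 FPKM for control (SD, n = 4).

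Of 4 genes that clear nicotinamide or its methylated product, 3 were above 0 and 1 below, with a median of 0.27. Nnmt, the methyltransferase that removes nicotinamide from salvage, was at 45.1, 94.1 and 51.9 FPKM in MDL-800, against 94.0, 68.7, 160 and 130.4 FPKM in control. MDL-800 1 and MDL-800 3 lay below every control and MDL-800 2 within them, and the log2 fold change was -0.82 (standard error 0.36, limma unadjusted p = 0.0562). Aox1, Cyp2e1 and Aox3 had 0.37, 0.32 and 0.21.

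Of the NADPH-producing enzymes 4 of 6 tested were above 0 and 2 below, with a median of 0.13. Me1, malic enzyme, was at 43.1, 61.4 and 70.9 FPKM in MDL-800, against 35.4, 22.7, 54.1 and 17.6 FPKM in control. Control 3 lay above MDL-800 1, and the log2 fold change was 0.93 with a standard error of 0.39 (limma unadjusted p = 0.0467, adjusted p = 0.950). Idh2, G6pdx and H6pd had 0.29, -0.63 and -0.28. The G6pdx value (standard error 0.62) rested on control 2, at 17.4 FPKM, against 1.69 to 3.44 FPKM elsewhere. Nnt, the mitochondrial transhydrogenase that the C57BL/6J substrain lacks in functional form, was below the filter at 0.207 ± 0.0773 FPKM for MDL-800 (SD, n = 3) and 0.201 ± 0.0311 FPKM for control (SD, n = 4).

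Nampt is a known output of the circadian clock, and the clock genes differed widely between libraries. Of 11 tested, 7 were above 0 and 4 below, with a median of 0.23 and no unadjusted p under 0.05. Nr1d1, which encodes the repressor REV-ERB alpha, was at 9.01, 41.6 and 21.3 FPKM in MDL-800, against 40.8, 4.19, 1.70 and 9.28 FPKM in control. Its highest values were in the Y-positive libraries, which held the lowest Nampt. Nr1d2 was also highest there, at 24.5 FPKM in MDL-800 2 and 17.5 FPKM in control 1, against 3.34 to 11.6 FPKM elsewhere. Npas2 was lowest there, at 0.215 and 0.331 FPKM, against 1.40 to 3.97 FPKM. Most of the listed clock genes had no overlap between Y-positive and Y-negative libraries, where 32.8% of all tested genes had none. Clock and Per1 did overlap, and Per1 was highest in control 4, at 8.38 FPKM. The split by Y-linked reads and that by these clock genes cannot be told apart. The part of collection time in the Nampt values was not tested.

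By the highest Pearson's r of log2(FPKM + 1) over the 7 libraries, the tested genes named as most like each of the 10 were Kifap3 and Ncald for Nampt (0.986 and 0.971), Ahsg for Nmrk1 (0.968), Fxyd1 and Cyhr1 for Naprt (0.990 and 0.982), Aff4 and Zfp652 for Qprt (0.996 and 0.992) and Kansl1l and Gm6069 for Nadsyn1 (0.995 and 0.990). For Nmnat1 they were Fam151b and Nek1 (0.991 and 0.985), for Nmnat3 Vegfb and Casp6 (0.975 and 0.971), for Nadk Flot2 and Snx14 (0.982 and 0.978), for Nadk2 D5Ertd579e and Wapl (0.995 and 0.993), and for Cd38 Serpinb6a and Gja4 (0.993 each). With 7 points and 11394 candidates, values this high describe the libraries only.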

How the data were processed

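The authors deposited FPKM per gene for 7 liver libraries. Per the labels' protocols, cDNA was made from lysed liver with a low-input SMARTer kit and libraries with an NEBNext kit, which does not mark strand. TopHat2 2.0.14, Bowtie2 2.1.0, Cufflinks 2.2.1 and build mm9 are named per the submitters' processing notes, while chromosome and start equal those of GENCODE M21 (GRCm38) for 53756 of 54409 shared identifiers. How reads were counted per gene is not stated there.

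FPKM times length was a whole multiple of 1 step per library (100% of nonzero values within 0.01), which recovered reads. Genes averaging 1 FPKM or more were tested on log2(FPKM + 1), a scale that understates changes of low genes, with limma 3.58.1 in R 4.3.3 (trend, two-sided, Benjamini-Hochberg, threshold 0.05), and members also by exact permutation. Alternatives were a pseudocount of 0.1, no filter, median scaling, summed reads as denominator, limma voom, a replicate block, Y-linked reads as a term or an exclusion, and leaving out each library. All but the fit with no filter used the same 11394 genes. Same-numbered libraries did not deviate together (correlations of -0.587, -0.553 and 0.0565). Named genes were the 10 members, up to 4 genes per pathway list with the smallest p, and the 2 genes most like each member. Parp1, Nnt, Per1, Clock and genes below the filter were added after their values were seen. One gene that the rule takes is not reported here. Members, lists and alternatives were chosen with earlier results of these data known. Plots used matplotlib 3.10.9 in Python 3.11.15.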

Additional observations from a re-analysis of the deposited data

How the results depend on the processing

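The count of the 10 genes past an adjusted p under 0.05 was 0 under all 15 alternatives, limma voom on recovered reads among them. No more than 1 of all tested genes passed in any of these fits, so this count says little about stability. Of 150 log2 fold changes of single genes, 146 kept their direction. Nadsyn1 ran from -0.053 to 0.33 and Cd38 from -0.50 to 0.13 when a library was left out, and the causes of their changes of sign were not tested. The count at an unadjusted p under 0.05 was 2 in the Y-negative libraries, 1 with a term for Y-linked reads, and 0 to 2 when a library was left out. The count of genes without overlap was 0 with median scaling, 4 in the Y-negative libraries, and 1 to 3 when a library was left out, where 8.27% to 15.6% of all tested genes had none. Fewer libraries leave more genes without overlap. With the replicate block 0 of the 10 genes passed and 0 had an unadjusted p under 0.05. The smallest limma adjusted p over all tested genes was 0.9994 there, so that fit could hardly call any gene. Control 4, with a number of its own, adds nothing to the group difference in that fit. The log2 fold changes of the block fit thus equal those without control 4 and count again among the 150. Over all genes tested, 553 had an unadjusted p under 0.05, against 192 with the replicate block, 274 to 948 when a library was left out, and 1083 of 26975 genes without a filter. One gene passed without MDL-800 1 and 1 without control 1. Read numbers of the 10 genes ran from 92 (Nmnat3) to 4871 (Nadk) per library, so counting error limits Nmnat3 most.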
